A study of Mus musculus with 12 samples.

Results

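The S100 family was described in mouse liver by 9 of its genes, S100a1, S100a4, S100a6, S100a8, S100a9, S100a10, S100a11, S100a13 and S100a16. They were taken by symbol from a count table of 55401 genes, with 6 iTgMir483 and 6 Control livers. Of the 9 genes, 8 had enough reads to be tested, among 13205 genes tested in all. All 12 livers came from female littermates aged 15 weeks, of a cross that the labels name CMVxmiR. The iTgMir483 animals carried tTA and Mir483 sequences inserted at Rosa26, a Tet-off design in which doxycycline keeps Mir483 silent. The study's methods describe a C57BL/6J background, doxycycline in the drinking water during pregnancy with withdrawal afterwards, and a ubiquitous CMV-Cre line that removed the selection cassette and contributed to the litters of both groups. The transgene was not restricted to the liver, so effects arising in the liver and effects arriving from other tissues cannot be told apart. The labels do not say how many litters the animals came from.

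S100 proteins are small calcium sensors with paired EF-hands, which work mostly as dimers inside cells and in part as secreted signals. S100A8 and S100A9 form calprotectin, an abundant protein of neutrophils and monocytes that sequesters metals and, outside cells, binds pattern receptors. S100A10 stands apart because it holds its active shape without calcium and pairs with annexin A2, while S100A11 is a partner of annexin A1.

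Libraries held 12244123 to 30431286 counts. Mir483 had 0 counts in all 6 Control libraries and 318 to 761 in the iTgMir483 libraries, as the labels require. A gene was called changed at an adjusted p under 0.05 (edgeR quasi-likelihood F-test, Benjamini-Hochberg over all genes tested) with a fold change over 1.5. Levels are given in CPM, counts scaled to a common library total by edgeR's trimmed mean method (TMM), as mean ± SD with n = 6 per group.

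Expression of 3 S100 genes rose in iTgMir483 livers, and no member fell by this rule. S100a9 rose 6.37-fold, S100a8 rose 5.01-fold and S100a11 rose 2.73-fold. Changed genes made up 11.1% of all genes tested, with 8.41% higher and 2.73% lower, and 3 of 8 tested members were higher. The members were chosen with earlier results of these data known. S100a8 and S100a9 had low counts in Control livers, and the count filter looked at both groups, so their iTgMir483 counts helped them into the test. The share is therefore given as a description and not as a test of the family. The median log2 fold change was 0.177 over the 8 tested members and 0.00583 over all genes tested. S100a13 passed the adjusted p in the lower direction but not the fold change, and 7.33% of all genes tested passed that p in the lower direction. S100a1, S100a6, S100a10 and S100a16 did not pass the test.

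**Figure D1:**
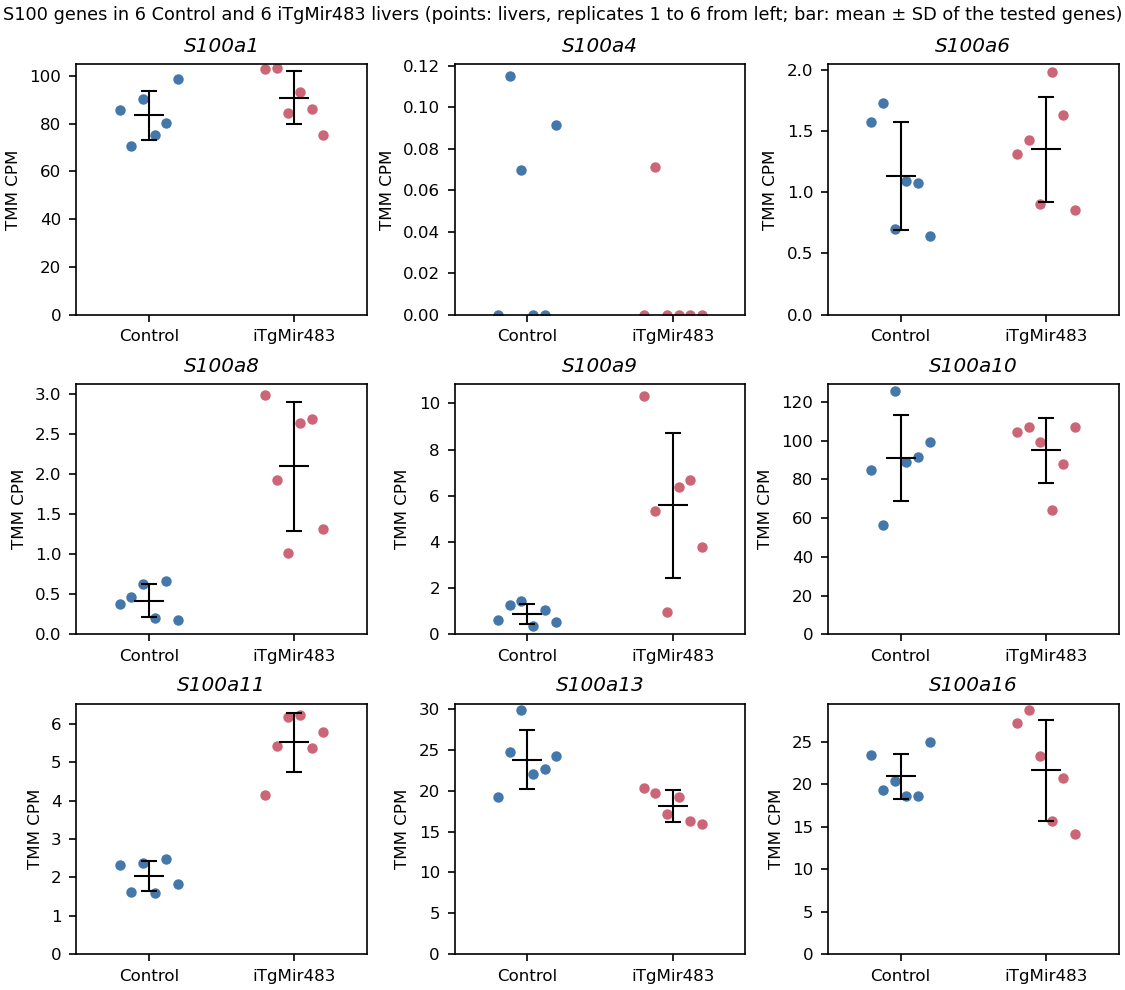
TMM CPM (y axis, from 0) of the 9 S100 genes in each Control and iTgMir483 liver, with points for livers and bars for the mean ± SD of the tested genes. The groups of S100a8 and S100a11 do not overlap, and 1 iTgMir483 liver lies within the Control range of S100a9.

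S100a8 (ENSMUSG00000056054, chromosome 3, 90668978 to 90670035, plus strand, GRCm38) encodes the smaller calprotectin subunit. Its counts in Control replicates 1 to 6 were 6, 8, 9, 6, 10 and 2, and those in iTgMir483 replicates 1 to 6 were 41, 27, 17, 36, 43 and 17. All 6 iTgMir483 livers lay above all Control livers, which was true in either direction of 7.92% of the genes tested. The level was 0.420 ± 0.206 CPM in Control and 2.10 ± 0.805 CPM in iTgMir483 livers. This was a log2 difference of 2.32 (SE 0.362, edgeR adjusted p = 0.00112), with a 95% interval of the fold change from 2.93 to 8.56. These are low counts, and the libraries' limit of 3 counts corresponds to 0.103 to 0.274 CPM, a limit that covers counting error only.

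S100a9 (ENSMUSG00000056071, chromosome 3, 90692632 to 90695721, minus strand) encodes the larger calprotectin subunit. Its counts were 10, 22, 21, 10, 16 and 6 in Control and 142, 75, 16, 87, 107 and 49 in iTgMir483 replicates 1 to 6. Of the 6 iTgMir483 livers, 5 lay above all Control livers, from 3.79 to 10.3 CPM. iTgMir483 replicate 3 had 0.960 CPM, inside the Control range of 0.342 to 1.46 CPM. The group levels were 0.887 ± 0.445 and 5.59 ± 3.13 CPM, 2.67 apart on the log2 scale (SE 0.473, edgeR adjusted p = 0.00229), with a 95% interval of the fold change from 3.16 to 12.8.

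No difference between the groups was detected in the ratio of the calprotectin subunits. The ratio of S100a9 to S100a8 counts was 2.17 ± 0.614 in Control and 2.495 ± 0.847 in iTgMir483 livers (2-sided exact permutation test over 924 assignments, p = 0.665). It ranged from 1.60 to 3 in Control livers and from 0.941 in iTgMir483 replicate 3 to 3.46 in iTgMir483 replicate 1. The Control ratios rest on 2 to 10 S100a8 counts per liver, so they are imprecise and a difference could be missed. The highest Control ratio, in replicate 6, came from 6 S100a9 and 2 S100a8 counts. Leaving out iTgMir483 replicate 3 moved the log2 difference from 0.146 to 0.407 (exact permutation test, p = 0.0823). Across the 12 livers, deviations of log2(CPM + 1) from the group means correlated between S100a8 and S100a9 (Pearson r = 0.910, permutation p = 9e-05, adjusted over 3 correlations 0.00027). The added 1 CPM is above every Control level of S100a8, which shrinks the deviations of its Control livers. Spearman's rho was 0.916 (permutation p = 0.00036, adjusted 0.00108), and r was 0.886 without the 2 livers farthest from the median. For S100a11 neither correlation passed. With S100a8 r was -0.117 (permutation p = 0.752, adjusted 0.752; rho = -0.014, permutation p = 0.975, adjusted 1.0; r = 0.443 without the 2 farthest livers). With S100a9 r was -0.32 (permutation p = 0.317, adjusted 0.476; rho = 0.0, permutation p = 1.0, adjusted 1.0; r = 0.33 without them).

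S100a11 (ENSMUSG00000027907, chromosome 3, 93520488 to 93526287, plus strand) had the narrowest spread of the 3 changed genes. Its counts were 37, 28, 34, 47, 37 and 20 in Control and 57, 76, 103, 85, 86 and 75 in iTgMir483 replicates 1 to 6. All 6 iTgMir483 livers lay above all Control livers, the lowest being replicate 1 at 4.15 CPM against a Control maximum of 2.48 CPM. The level rose from 2.04 ± 0.399 to 5.53 ± 0.764 CPM, by 1.45 on the log2 scale (SE 0.165, edgeR adjusted p = 0.000144), with a 95% interval of the fold change from 2.14 to 3.48. iTgMir483 replicate 3, the lowest of its group for S100a8 and S100a9, was among the highest for S100a11 at 6.18 CPM.

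Sequence before the start sites of these 3 changed genes is shown because the members that rose lie at different places on the chromosome. The 250 bases before the RefSeq start were read on the gene's own strand (GRCm38.p6), and bases that GENCODE annotates as exon, 93 for S100a8 and 8 for S100a11, were left out of the print. The printed stretches are chr3:90668821-90668977 (plus), chr3:90695722-90695971 (minus) and chr3:93520246-93520487 (plus), and capitals mark matches to the AP-1 letters TGACTCA on either strand.
S100a8: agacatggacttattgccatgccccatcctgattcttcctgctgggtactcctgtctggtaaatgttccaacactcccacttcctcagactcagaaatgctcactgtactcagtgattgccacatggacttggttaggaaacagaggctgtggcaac
S100a9: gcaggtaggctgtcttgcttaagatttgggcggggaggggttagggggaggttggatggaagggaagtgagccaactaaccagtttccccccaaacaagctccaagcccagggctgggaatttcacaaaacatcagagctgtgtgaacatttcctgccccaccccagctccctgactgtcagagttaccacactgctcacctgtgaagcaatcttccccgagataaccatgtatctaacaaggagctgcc
S100a11: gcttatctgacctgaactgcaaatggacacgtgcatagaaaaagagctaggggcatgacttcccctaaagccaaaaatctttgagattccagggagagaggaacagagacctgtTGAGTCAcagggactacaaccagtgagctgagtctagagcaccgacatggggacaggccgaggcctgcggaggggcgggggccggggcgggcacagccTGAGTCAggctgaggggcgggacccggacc
S100a11 had 2 AP-1 matches, at -136 to -130 and at -38 to -32 from the RefSeq start, and no other member had one. Of 32851 RefSeq promoters of the same length, 4.46% held these letters. TATAAA, held by 12.4% of promoters on either strand, stood at -30 to -25 in S100a8, within the bases not printed, and at -31 to -26 in S100a4. CCAAT, held by 33.8%, was found in S100a6 at -228 to -224. None of the 8 members with a promoter in the table held the C/EBP letters TTGCGCAA (0.164% of promoters), the NF-kB letters GGGNNTTCC (4.98%) or the STAT letters TTCNNNGAA (7.02%), searched on both strands. S100a10 had no entry. Only the spellings given were searched, so other forms of these sites are not covered. These matches describe letters and not binding.

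S100a13, whose protein takes part in the release of growth factors that lack a signal peptide, had the only lower value past the adjusted p. Control livers ranged from 19.3 to 29.9 CPM with a median of 23.5, and iTgMir483 livers from 15.9 to 20.4 CPM with a median of 18.2. The ranges overlapped, with 3 iTgMir483 livers below all Control livers. The level was 23.8 ± 3.56 in Control and 18.1 ± 1.93 CPM in iTgMir483 livers, a difference of -0.39 on the log2 scale (SE 0.110, edgeR adjusted p = 0.0235), short of a 1.5-fold difference. Leaving out Control replicate 3 (adjusted p = 0.0524), iTgMir483 replicate 3 (0.0511) or iTgMir483 replicate 6 (0.0516) raised its adjusted p above 0.05 (edgeR).

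S100a1, a calcium sensor best known from heart and skeletal muscle, was the most abundant member per length. It ranged from 70.6 to 98.7 CPM in Control (median 83.0) and from 75.4 to 103 CPM in iTgMir483 livers (median 89.8), and its log2 fold change was 0.12 (SE 0.105, edgeR adjusted p = 0.438; 95% interval -0.10 to 0.35). S100a10, the annexin A2 partner, ranged from 56.4 to 125.7 CPM in Control (median 90.2) and from 64.3 to 107 CPM in iTgMir483 livers (median 101.9). Its log2 fold change was 0.06 (SE 0.168, edgeR adjusted p = 0.831; interval -0.30 to 0.42). For both genes the interval lay within a 1.5-fold difference in either direction.

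S100a16, a broadly expressed member, had 20.9 ± 2.70 CPM in Control and 21.7 ± 5.97 CPM in iTgMir483 livers. Its iTgMir483 livers spread on both sides, with 2 above and 2 below all Control livers, and its log2 fold change was 0.05 (SE 0.165, edgeR adjusted p = 0.854; interval -0.30 to 0.40). S100a6, known as calcyclin and raised in dividing cells, had 7 to 32 counts per library. It ranged from 0.640 to 1.73 CPM in Control and from 0.851 to 1.98 CPM in iTgMir483 livers, with 0.23 as its log2 fold change (SE 0.290, edgeR adjusted p = 0.621). Its interval of -0.39 to 0.85 left a 1.5-fold difference possible at this depth. S100a4, a marker of fibroblasts and some macrophages, had 4 counts over all Control libraries and 1 over all iTgMir483 libraries, at most 2 in any, so a difference was not detectable. It overlaps a predicted gene on the same strand, Gm42674, which had 0 counts in every library.

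**Figure D2:**
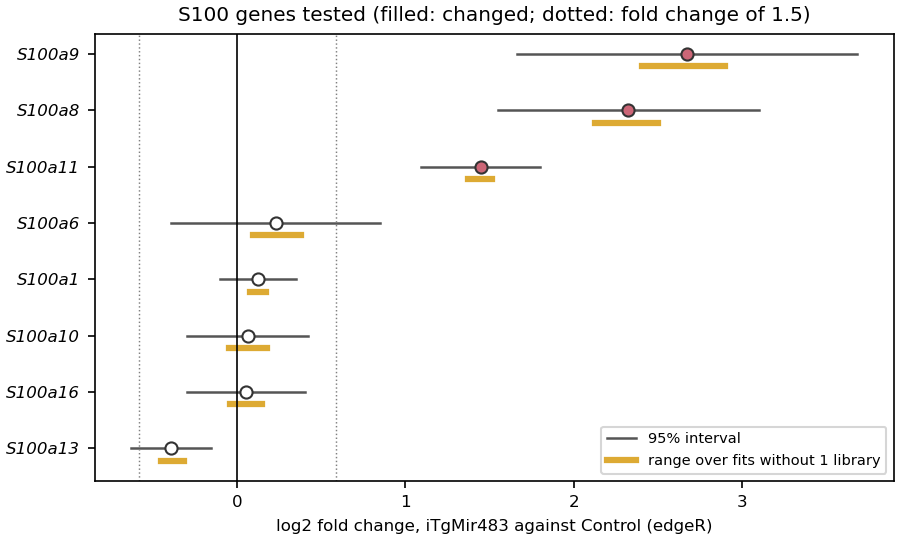
Log2 fold change of iTgMir483 against Control (x axis) for the 8 tested S100 genes, with the 95% interval as a grey line and the range over fits that leave out 1 library as a yellow bar. S100a8, S100a9 and S100a11 lie past the dotted 1.5-fold line, and the yellow bars of S100a10 and S100a16 cross 0.

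Levels between members were compared per kb of exon. In Control livers the order was S100a1 (120.3 ± 14.9 CPM per kb), S100a10 (75.1 ± 18.5), S100a13 (33.3 ± 4.98), S100a16 (12.9 ± 1.67), S100a11 (3.98 ± 0.781), S100a9 (1.70 ± 0.852), S100a6 (0.829 ± 0.324), S100a8 (0.606 ± 0.296) and S100a4. The ranges of S100a1 and S100a10 overlapped, as did those of S100a9 and S100a6 and those of S100a6 and S100a8, while the other neighbours in the order did not. In iTgMir483 livers S100a11 (10.8 ± 1.496 CPM per kb) and S100a9 (10.7 ± 6.00) stood next to S100a16 (13.4 ± 3.69), and the ranges of these neighbours overlapped. S100a8, at 3.02 ± 1.16 CPM per kb, lay above S100a6 in 6 of 6 iTgMir483 livers, against 2 of 6 Control livers. S100a1 and S100a10 together gave 72.0% to 81.3% of the counts of the 9 members in every liver. S100a8 and S100a9 gave 0.263% to 0.979% of them in Control livers and 0.848% to 4.87% in iTgMir483 livers.

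**Figure D3:**
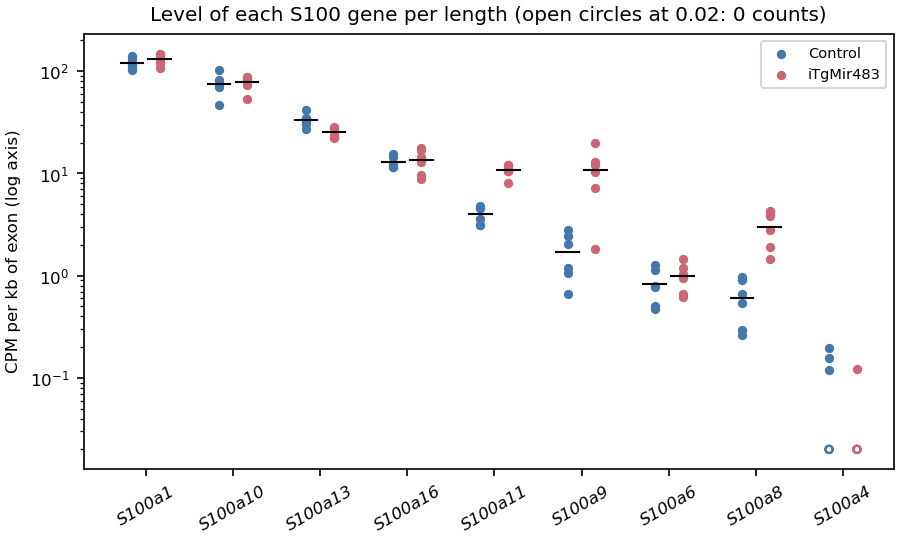
CPM per kb of exon (log axis) of the 9 S100 genes in order of their Control mean, with points for livers and a line at the mean where every liver had a count. S100a11, S100a9 and S100a8 are the members whose iTgMir483 points lie mainly above their Control points.

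Of 7 other S100 genes listed, none reached the level for testing, and 6 had at most 3 counts in every library. S100a2, which lies in the same stretch of chromosome 3 and was added after its values were seen, had 1 count in 1 library. S100g, encoding the intestinal calcium carrier calbindin-D9k, had 5 counts over the Control libraries and 27 over the iTgMir483 libraries, with at most 2 in any Control library, and 5 of 6 iTgMir483 livers had 5 or 6. With no filter on low counts its log2 fold change was 2.505 (SE 0.690, edgeR adjusted p = 0.0265). In that fit 1567 of 26863 genes changed. S100g alone of the 7 genes is given from that fit, at counts below the level for testing, so its value is a description.

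Of the 9 members, 7 lie in 184.7 kb of chromosome 3 (90511034 to 90695721). S100a11 and S100a10 lie in a stretch of 44.2 kb, 2.83 Mb farther on. S100a8 and S100a9 sit at the far end of the first stretch on opposite strands, 22.6 kb apart. S100a1 and S100a13 start 42 bases apart on opposite strands, so without the stated counting strand reads near their starts could be counted for either gene. Within 200000 bases of the first stretch, 21 other genes were listed, 7 were tested and 0 changed (log2 fold changes from -0.40 to 0.06; 1 gene, Chtop, passed the adjusted p alone at -0.30, SE 0.0760, adjusted p = 0.0139, edgeR). Around S100a11 and S100a10, 1 of 21 other genes was tested, Tchh, whose adjusted p was 0.998 (edgeR). The neighbours S100a11 and S100a10 themselves differed, with log2 fold changes of 1.45 and 0.06.

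**Figure D4:**
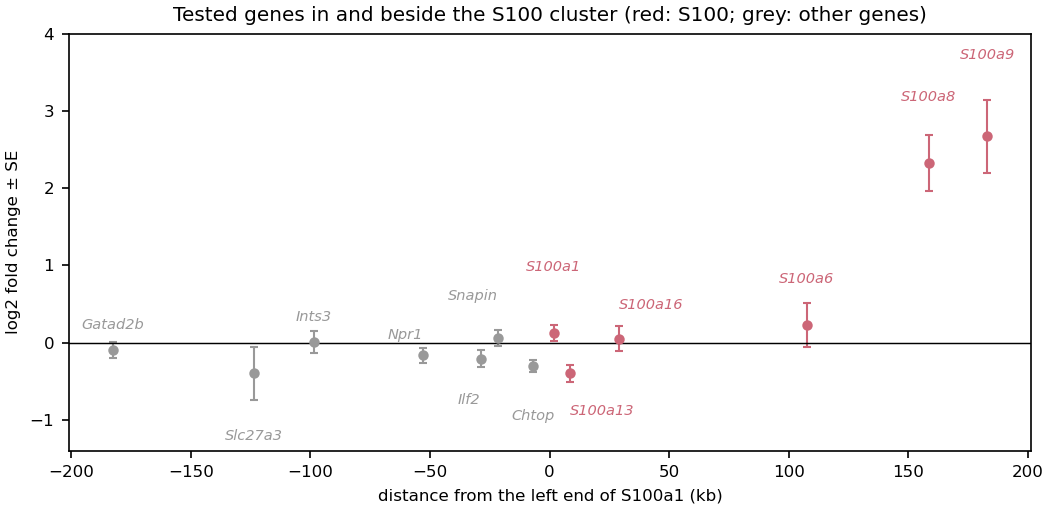
Log2 fold change ± SE (y axis) of the tested genes in the longer S100 stretch and within 200000 bases of it, by distance from the left end of S100a1 (x axis, kb), with S100 genes in red and others in grey. S100a8 and S100a9, at the right end, lie above 2, and the other genes lie between -0.40 and 0.23.

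The mature products of the over-expressed gene are printed with the seed, bases 2 to 8, in capitals (RefSeq, GRCm38.p6, chromosome 7, minus strand, chr7:142654932-142654952 and chr7:142654968-142654989). Both were searched against the longest annotated 3′ UTR of each gene.
miR-483-3p: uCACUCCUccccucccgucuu
miR-483-5p: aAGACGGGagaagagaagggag
None of the 9 members had a match to either seed (sites AGGAGTG and CCCGTCT). Their 3′ UTRs are short, from 68 bases in S100a8 to 565 in S100a16. Among 3413 tested genes with a 3′ UTR of at most 565 bases, 2.55% had a miR-483-3p site and 0.615% a miR-483-5p site.

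Genes of proteins reported to bind secreted S100 proteins were examined as receptors. Of 8 tested, 4 rose and 0 fell, beside 8.41% of all genes tested that rose, and the median log2 fold change was 0.659. Ager, the receptor for advanced glycation end products, rose from 0.456 ± 0.249 to 1.12 ± 0.326 CPM (log2 fold change 1.30, SE 0.351, adjusted p = 0.0193, edgeR), at 3 to 21 counts per library. Cd33, a sialic acid-binding receptor of myeloid cells, rose by 1.13 on the log2 scale (adjusted p = 0.0461, edgeR). Cd68, which is also a macrophage marker, rose by 0.71 (adjusted p = 0.00544, edgeR), and the growth factor receptor Fgfr1 by 0.61 (adjusted p = 0.0134, edgeR). Tlr4, the lipopolysaccharide receptor that also binds S100A8, had 1.78 ± 0.594 CPM in Control and 2.48 ± 0.514 CPM in iTgMir483 livers (adjusted p = 0.190, edgeR), and Cd36, Bsg and Alcam did not pass either (adjusted p = 0.0905, 0.0582 and 0.913, edgeR).

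Of 13 intracellular partners, 1 rose and 0 fell by the rule, a share near the 8.41% of all genes tested that rose, with a median log2 fold change of 0.104. Anxa2, encoding annexin A2, ranged from 7.86 to 13.3 CPM in Control and from 16.9 to 65.5 CPM in iTgMir483 livers, with no overlap. Its mean rose from 11.4 ± 2.25 to 46.8 ± 18.6 CPM (log2 fold change 2.04, SE 0.268, adjusted p = 0.000371, edgeR), while the log2 fold change of its partner S100a10 was 0.06 with an interval up to 0.42. Anxa1, the partner of S100a11, passed the adjusted p but not the fold change, at 3.33 ± 0.269 and 4.94 ± 0.838 CPM (log2 fold change 0.57, SE 0.146, adjusted p = 0.0153, edgeR). Ahnak, a scaffold bound by the S100A10 and annexin A2 complex, did the same (0.52, adjusted p = 0.0141, edgeR), and Cacybp, the calcyclin-binding protein, did so in the lower direction (-0.58, adjusted p = 0.00979, edgeR).

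Markers of other liver cells moved between the groups too. In bulk tissue, a changed number of cells of a type and a changed RNA level per cell cannot be told apart. The summed CPM of 12 neutrophil markers ranged from 3.45 to 5.64 in Control and from 6.48 to 39.2 in iTgMir483 livers, higher in 6 of 6 than in any Control liver (2-sided exact permutation test, adjusted over 10 marker lists p = 0.00541, from the smallest p the design allows, 0.00216). Csf3r was the largest part of this sum, at 3.07 ± 0.551 CPM in Control and 8.665 ± 3.74 CPM in iTgMir483 livers. Most of these markers were at very low counts, and 2 of 12 could be tested. Csf3r rose (1.48, SE 0.250, adjusted p = 0.00165, edgeR), and Mmp9 differed by 0.11 (edgeR adjusted p = 0.866). Ly6g, the defining surface marker of mouse neutrophils, had 0 counts in the Control libraries and 2 in all iTgMir483 libraries. Granule genes were counted instead. Ngp, neutrophilic granule protein, had 5 counts over all Control libraries and 65, 15, 8, 54, 39 and 13 in iTgMir483 replicates 1 to 6. Ltf, lactoferrin, had 7 in Control and 54, 14, 3, 30, 30 and 3 in iTgMir483 livers, and Mpo, myeloperoxidase, had 6 in Control and 27, 5, 1, 25, 17 and 7. Other markers differed less: Retnlg had 27 counts over all Control and 51 over all iTgMir483 libraries, and Cxcr2 had 20 and 26. iTgMir483 replicates 1, 4 and 5 were the 3 highest of their group for S100a8 and S100a9. The same 3 livers were the highest for 6 of the 12 markers (Mpo, Prtn3, Ltf, Camp, Ngp and Mmp8) and not for Elane, Retnlg, Cxcr2, Csf3r, Mmp9 or Ly6g. Replicate 3, at the Control level of S100a9, was the lowest iTgMir483 liver for the neutrophil sum. Prtn3 had 176 counts in iTgMir483 replicate 4, against 17 or fewer in any other liver. The part of these cells in the rise of S100a8 and S100a9 was not tested.

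**Figure D5:**
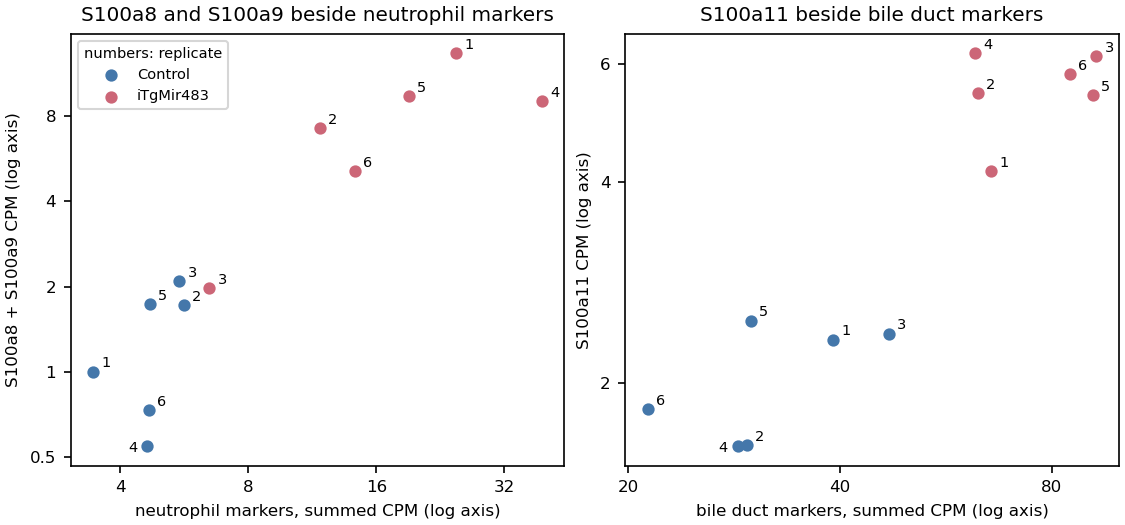
Left, S100a8 plus S100a9 against the summed neutrophil markers; right, S100a11 against the summed bile duct markers; all axes are CPM on log scales, points are livers and numbers are replicates. iTgMir483 replicate 3 lies beside the Control livers on the left (6.48 CPM of markers) and among the other iTgMir483 livers on the right. On the right, iTgMir483 replicate 4 had the highest S100a11 of its group (6.23 CPM) and the lowest bile duct sum (62.2 CPM). Replicate 3 had the highest bile duct sum of its group (92.55 CPM), with 6.18 CPM of S100a11. Csf3r was the largest part of the neutrophil sum, and most of the bile duct sum was Spp1.

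The other lists were measured in the same way. Monocyte markers rose from a median summed level of 61.2 to 106 CPM and Kupffer cell markers, those of resident liver macrophages, from 359.7 to 609.7 CPM, each higher in 6 of 6 iTgMir483 livers (exact permutation test, adjusted p = 0.00541 for both). Of 5 monocyte markers tested, 2 rose, Itgam and Lyz2, the latter also a macrophage gene and most of the sum (51.9 ± 9.47 to 115 ± 56.9 CPM). Itgam had 0 to 78 counts per library, and Ly6c2, Chil3 and Cx3cr1 were too low to be tested. Ccr2 (-0.59, adjusted p = 0.108, edgeR), Plac8 (0.54, adjusted p = 0.170) and Spn (0.25, adjusted p = 0.561) did not pass. Of 8 Kupffer cell markers, 7 changed, all higher. Among all genes tested, 8.41% rose by the same rule, the share to set beside the counts of risen markers here. Bile duct markers rose from a median of 29.7 to 75.2 CPM, again in 6 of 6 livers (exact permutation test, adjusted p = 0.00541). Spp1 made up most of that sum, at 25.6 ± 7.62 CPM in Control and 63.6 ± 11.7 CPM in iTgMir483 livers. Of 6 members tested, 4 were higher, Krt7, Epcam, Spp1 and Muc1, and 2 did not pass, Krt19 and Sox9. Krt7 and Muc1 were at low levels, with means of 0.706 and 0.690 CPM in Control livers. Hepatocyte markers fell in summed level, from a median of 141700 to 112200 CPM (exact permutation test, adjusted p = 0.0216). Alb made up most of that sum and did not pass by itself (log2 fold change -0.557, adjusted p = 0.16, edgeR). Of 8 members tested, 1 was lower by the rule, Cps1, beside 2.73% of all genes tested. Cyp2e1 passed the adjusted p alone (-0.426, adjusted p = 0.0404, edgeR), and the others did not pass, with Apoa1 at 0.19. Stellate and fibroblast markers had medians of 378.6 and 458.5 CPM (exact permutation test, adjusted p = 0.0433), with 0 of 10 members changed. Adipocyte markers were at or near 0 (medians 0.109 and 0.0357 CPM, exact permutation test, adjusted p = 0.0433). Leaving out a single library took the adjusted p of the hepatocyte, stellate and adipocyte lists up to 0.0649, 0.0685 and 0.102 (exact permutation tests). Lymphocyte (exact permutation test, adjusted p = 0.092), endothelial (0.38) and red cell markers (0.539) did not pass. The part of these cell types in the levels of S100a11 and the other members was not tested.

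Likeness between genes over the 12 livers was measured by Pearson's r of log2(CPM + 1) deviations from the group means. For each changed member, the 3 genes most alike were taken among 12494 genes with a mean of at least 1 CPM. For S100a8 they were Suclg2 (0.911), S100a9 (0.910) and Tmx1 (0.853), and for S100a9 S100a8 (0.910), Pdhb (0.895) and Suclg2 (0.886). For S100a11 they were Dhx58 (0.927), Slc25a33 (0.915) and Ifit2 (0.884). With only 12 livers, the highest of so many correlations are large by selection, so these values are a description.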

How the data were processed

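RNA-seq was performed on livers of 6 iTgMir483 and 6 Control females (15 weeks). The authors deposited raw read counts per gene, made from stranded poly(A) libraries aligned to GRCm38 with STAR. Which strand column was used is not given in the sources used here, so reads of overlapping genes are uncertain. The table held 55401 genes, with 0 rows naming no gene. Symbols, positions and exon lengths came from GENCODE M21 on GRCm38, and promoters and microRNAs from RefSeq.

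Groups came from the sample titles. All 12 library labels share a leading code, and none names a batch. Genes passing filterByExpr (13205) were tested with edgeR 4.0.16 (limma 3.58.1, R 4.3.3) by the quasi-likelihood F-test after TMM scaling, without covariates, on all 12 libraries. Standard errors were taken as the log2 fold change over the root of F, and 95% intervals use the fitted degrees of freedom. Sums and ratios were compared by exact permutation over 924 assignments (SciPy 1.17.1), with a pseudocount of 0.01 CPM for sums, and correlations by 100000 permutations. Libraries differed far beyond sampling noise (smallest chi-square per gene 14.3) and each counted as 1 replicate.

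The members and lists were chosen with earlier results of these data known. The named genes are the S100 genes, Mir483, members of the lists, genes within 200000 bases of the S100 stretches, and the 3 genes most alike each changed member. Results were recomputed with DESeq2 1.42.0, limma-voom, RLE scaling, 2 other count filters, other call rules, a replicate block and leaving out libraries. Protein sequences were not used here.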

Additional observations from a re-analysis of the deposited data

Results flagged for a closer look

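Of 38 group comparisons of 6 livers by Dixon's criterion, 2 held a liver far from the others of its group, where chance gives about 1.9. The summed Kupffer cell markers of iTgMir483 replicate 4 were at 1307 CPM, against 464 to 733 CPM in the other iTgMir483 livers (gap over range 0.681). The summed adipocyte markers of Control replicate 5 were at 2.34 CPM, against 0.0697 to 0.753 CPM in the other Control livers (0.700). None of the 8 tested S100 members had such a liver in either group.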

How the results depend on the processing

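S100a8 and S100a9 kept their direction and call under all 19 alternatives fitted for each, with log2 fold changes from 2.13 to 2.498 and from 2.33 to 2.90. S100a11 did so under all 20 (1.37 to 1.56), and leaving out 1 library left 3 members higher and 0 lower each time. With at least 10 counts required in every library, 1 member was called higher, because S100a8, S100a9 and S100a6 left the table. By adjusted p alone, 1 member was lower (S100a13), and 2457 genes changed, 968 of them lower. In a test against a fold change of 1.5, 226 genes changed, 167 higher and 59 lower. Over fits without 1 library, S100a10 ranged from -0.0474 (adjusted p = 0.859, edgeR, without Control replicate 2) to 0.177. S100a16 ranged from -0.0444 (adjusted p = 0.875, without iTgMir483 replicate 2) to 0.148, and was at -0.02 (adjusted p = 0.936) without iTgMir483 replicate 1. S100a13 ranged from -0.45 to -0.32 over these fits and was at -0.48 without both replicate 1 libraries. Its adjusted p was 1.0 in the test against a fold change of 1.5.

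Same replicate numbers marked no stated pairing: the correlations of same-numbered livers were 0.49, 0.0146, 0.0483, 0.0233, 0.194 and 0.0531, and 3 livers correlated best with their own number. With a replicate block in the fit, 1530 genes changed instead of 1470, and the S100 calls were S100a8 2.33 (adjusted p = 0.00265, edgeR), S100a9 2.56 (0.0076) and S100a11 1.45 (0.00114).

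As means of log2(CPM + 1), the stellate and fibroblast list (0.232, exact permutation test, adjusted p = 0.292) and the adipocyte list (-0.115, adjusted p = 0.0577) no longer passed. Over fits without 1 library, the log2 difference in summed CPM ranged from 0.207 to 0.305 for stellate and fibroblast markers, from -3.39 to -2.31 for adipocyte markers and from -0.635 to -0.436 for hepatocyte markers, with adjusted p values up to 0.0685, 0.102 and 0.0649 (exact permutation tests). The call was lost without any 1 of Control replicates 1, 2, 3, 4 and 6 or iTgMir483 replicates 3, 4 and 6 for stellate, of Control replicates 1, 2, 4, 5 and 6 or iTgMir483 replicates 3, 4 and 6 for adipocyte, and of Control replicates 2, 3, 4 and 6 for hepatocyte markers. The neutrophil, monocyte, Kupffer cell and bile duct lists passed without any 1 library (highest adjusted p = 0.0108, exact permutation tests). The cause of these changes was not tested. Low counts limit S100a6 and S100a8, and S100a4 was too low to be tested.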
